A study of Arabidopsis thaliana with 6 samples.

Results

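The NPH3 family of *Arabidopsis thaliana* comprises plant-specific proteins named after NON-PHOTOTROPIC HYPOCOTYL 3, and its expression was examined in whole seedlings exposed for 1 h to protease IV, a protease that *Pseudomonas aeruginosa* PA14 secretes. The members were a list of 33 loci with an NPH3 domain. A locus was kept where the array annotation tied a probe set to that gene alone, which held for 21 of the 33, among 13355 genes analysed in all. Where a locus had several such probe sets, one was to be chosen by its mean level over the 6 arrays, but each of the 21 had a single one, so that this step chose nothing. None of these probe sets carried the suffix that marks probes shared between transcripts. The array data themselves cannot test membership in the family, and the domain assignment is that of the list. The family was chosen for description with the treatment differences already known, including that AT3G19850 had the largest fall among the genes analysed; its place in that order is therefore a description, and no test is given for it.

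Most proteins of this family carry an N-terminal BTB domain, which can dock on the ubiquitin ligase scaffold cullin 3, followed by the NPH3 domain. The founding member NPH3 binds the blue-light receptor kinase phototropin 1 at the plasma membrane, changes its phosphorylation when light arrives, and is required for the bending of seedlings towards light. RPT2 acts beside it, the NPY proteins act with kinases of the PINOID group in auxin-dependent organ formation, and DOT3 shapes leaf veins. These well-studied members are not among the values below. RefSeq gives a symbol other than the locus name to 9 of the 33 loci, and 8 of these 9, namely NPH3, RPT2, DOT3 and the 5 NPY genes, had no probe set assigned to them alone and were not analysed here. The same held for AT1G67900, AT3G49970, AT3G50840 and AT5G67385. The results thus describe SETH6 and 20 members whose only symbol in RefSeq is the locus name, and these 20 are called by locus here.

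The 3 mock and 3 protease IV arrays each held RNA from whole 10-day-old seedlings, grown in liquid medium in multi-well plates. The treated wells received 20 nM of the purified protease for 1 h. The labels name no accession, mutant or transgene for either group, and they call the control both nontreated and mock without saying whether buffer was added. No time is recorded for the mock arrays, so it is not known that they were harvested at the matching time. Each array is labelled a biological replicate, but how wells were divided among them is not stated. The spread between these arrays may therefore be technical in part. Each p-value, SE and interval below rests on that spread after limma has drawn each gene's variance towards that of all genes. An SE or interval can thus be wider or narrower than the gene's own arrays alone would give.

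Levels are log2 values from robust multi-array averaging (RMA), in which a difference of 1 is 2-fold. They give relative abundance within an array: quantile normalization removes any change in total mRNA. The array medians lay between 6.07 and 6.13 and the lower quartiles between 3.97 and 4.05, and signals near or below the latter are close to background, where differences are compressed. Of the markers fixed for the tissue, 4 of 5 leaf genes fell, with a summed log2 level of 15.16 to 15.21 in mock and 14.81 to 14.89 after protease IV. All 3 stomatal lineage regulators also fell (7.72 to 7.84 and 7.12 to 7.39). Of these, MUTE was near background, with group means of 4.14 and 3.83 (limma, adjusted p = 0.0344). It missed the threshold when any array other than mock replicate 3 was left out. Of the 4 root markers 1 fell, EXPA18. Their summed level (12.61 to 12.69 and 12.48 to 12.50) is nearly all PYK10, with a mock mean of 12.63 against 5.39 to 5.78 for the others. PYK10 itself did not pass (limma, adjusted p = 0.0812). For pollen 0 of 4 markers passed, all 4 with mock means below the lower quartile (5.62 to 5.73 and 5.58 to 5.74). At the threshold used below, 22.8% of all genes were called lower, and 35.8% of genes with a mean of at least 5. With cyclic loess scaling between arrays 3 leaf and 2 stomatal markers fell, 0 root markers fell and 1 rose. In whole seedlings, fewer cells of a type and less RNA per cell cannot be told apart, and the part of these shifts in the results below was not tested.

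After 1 h of protease IV treatment, 12 of the 21 measured NPH3-family genes were lower than in mock and 0 were higher (limma, two-sided, adjusted p under 0.05 over all 13355 genes). Among all genes 22.8% were called lower and 11.4% higher. Without AT3G19850, which was known to fall, 11 of the other 20 members were lower. The differences of those 20 were also known when the family was chosen, so the counts and medians given here are description, not a test. The median difference of the 21 members was -0.34 on the log2 scale, against -0.06 over all genes, and -0.32 without AT3G19850. In all 12 the protease IV arrays lay below every mock array, and in 0 members did they lie above, whereas such non-overlap occurred in 31.0% of all genes downwards and 14.7% upwards. In the other 9 the groups overlapped.

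**Figure D1:**
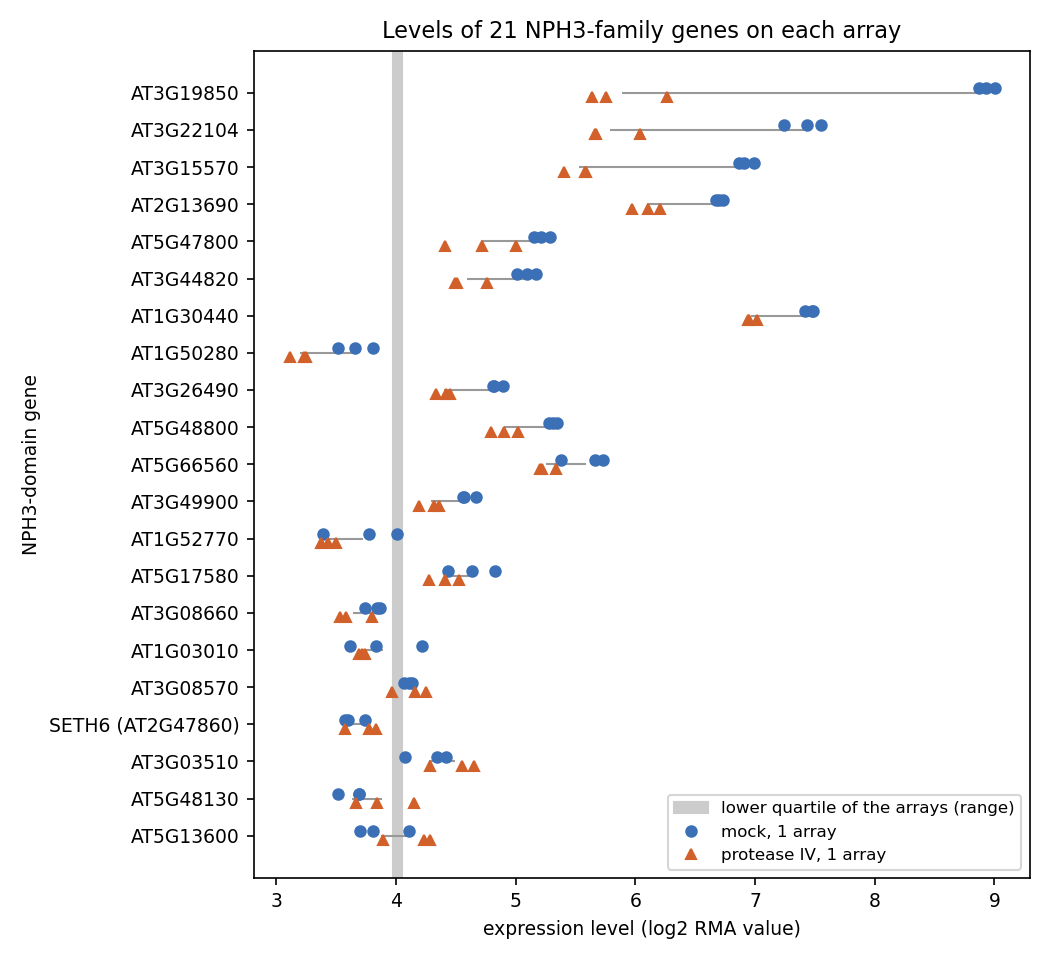
Expression level (log2 RMA value, horizontal axis) of the 21 measured NPH3-family genes on each of the 3 mock arrays (circles) and 3 protease IV arrays (triangles), ordered by their difference. Grey lines join the group means, and the grey band spans the lower quartiles of the arrays, 3.97 to 4.05; in the upper 12 genes all triangles lie left of all circles.

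The size of the fall varied widely within the family. Falls of at least 2-fold were seen in 3 members, AT3G19850, AT3G22104 and AT3G15570, among 156 such genes in the whole table, or 1.17% of those tested. The other 9 falls ran from -0.61 to -0.31, and their 95% intervals lay above those of these 3 genes.

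AT3G19850 stood at 8.929, 9.001 and 8.870 in mock replicates 1 to 3. In protease IV replicates 1 to 3 it stood at 5.64, 5.75 and 6.26, so that 2.61 log2 units separated the lowest mock array from the highest treated one. The group means were 8.93 ± 0.066 and 5.89 ± 0.33 (SD, n = 3 each). This is a difference of -3.05 (95% interval -3.36 to -2.74), or 8.27-fold (6.66 to 10.3). The treated arrays were spread more than the mock arrays, with replicate 3 the highest. That array also had the largest 3-prime minus 5-prime difference of an actin control, 2.12 against 1.57 to 1.73 on the other arrays. An older actin set and both GAPDH sets were highest there too, but neither ubiquitin set was. The array enters the difference of every member, and the part of RNA quality in these values was not tested. Without protease IV replicate 3 the difference of AT3G19850 was -3.24.

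AT3G22104 had mock levels of 7.25, 7.55 and 7.43. Its protease IV levels were 5.66, 6.04 and 5.67. Here replicate 2, not replicate 3, was the highest treated array, and 1.21 log2 units separated the groups. The gene fell by 1.62 (SE 0.12; limma, adjusted p = 1.78e-06), which is 3.07-fold with an interval of 2.56 to 3.68, and ranked at place 27 among the falls of all genes.

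AT3G15570 had mock levels of 6.99, 6.87 and 6.91. Its protease IV levels were 5.40, 5.59 and 5.58. Both groups were tight and 1.28 log2 units apart. The gene fell by 1.40 (SE 0.081; limma, adjusted p = 2.81e-07), which is 2.64-fold with an interval of 2.33 to 2.99, at place 58 among all falls. The intervals of AT3G22104 and AT3G15570 overlap, and neither reaches that of AT3G19850. The files and RefSeq give none of these 3 loci a name or a role.

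**Figure D2:**
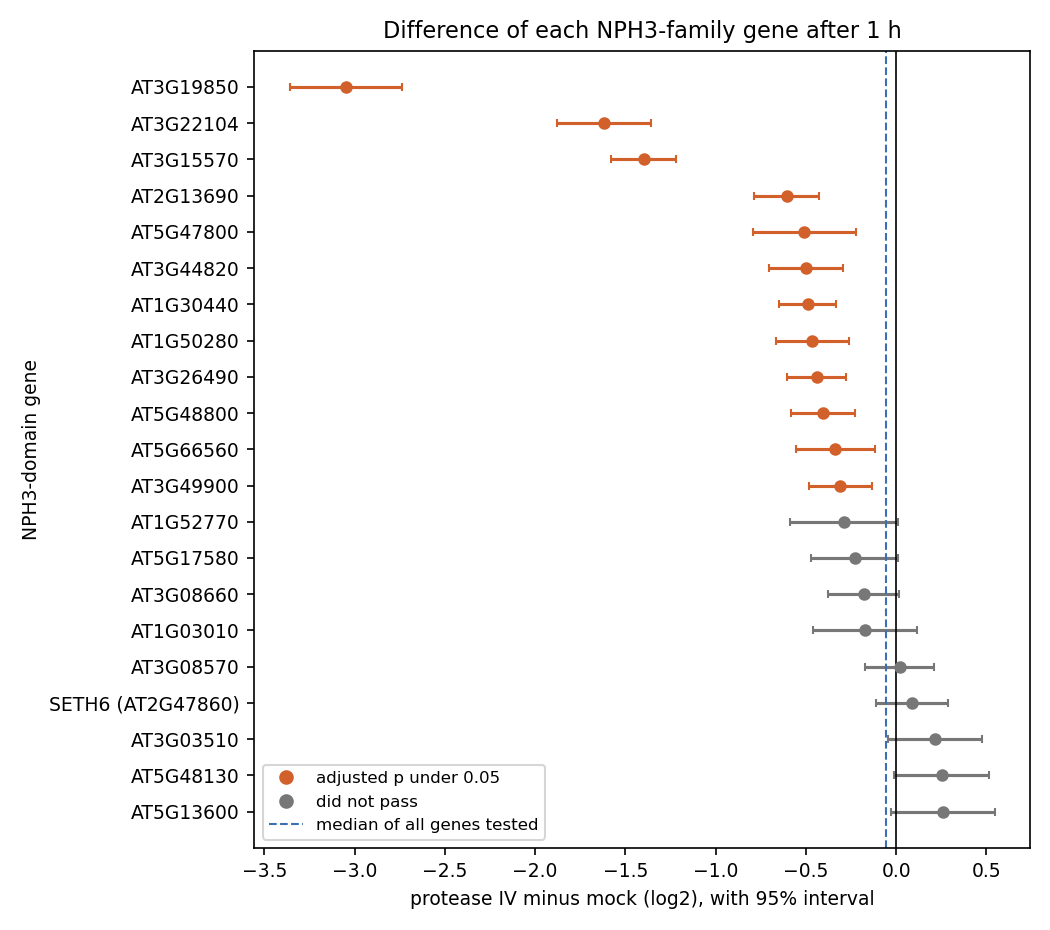
Difference between protease IV and mock (log2, horizontal axis) of each measured NPH3-family gene, with the 95% interval from limma. Orange points passed the threshold and grey points did not; the dashed line marks the median of all genes tested, -0.06, and AT3G19850 stands apart at -3.05.

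Among the smaller falls, those of AT2G13690 and AT1G30440 were measured on well-expressed transcripts. AT2G13690 lay at 6.68, 6.74 and 6.70 in mock and at 5.97, 6.21 and 6.11 after protease IV, a fall by 0.61 (SE 0.080; limma, adjusted p = 0.000186). AT1G30440 lay at 7.48, 7.42 and 7.48 in mock and at 6.95, 6.94 and 7.01 after protease IV. It fell by 0.49 (SE 0.070; limma, adjusted p = 0.000318), with SDs of 0.037 and 0.039 that were small in both groups. For both genes the groups were separated by 0.47 and 0.40 log2 units.

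AT5G47800 was more variable in treated seedlings. It lay at 5.21, 5.29 and 5.16 in mock. After protease IV it was at 4.41 in replicate 1, at 4.72 in replicate 3, and in replicate 2 within 0.16 of the lowest mock array. It fell by 0.51 (limma, adjusted p = 0.0112). The difference was between -0.65 and -0.36 with each array left out in turn. AT3G44820 went from 5.01, 5.09 and 5.17 to 4.50, 4.76 and 4.51 and fell by 0.50 (limma, adjusted p = 0.00167). In both genes protease IV replicate 2 was the treated array nearest to mock.

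AT3G26490 lay between 4.81 and 4.90 in mock and between 4.33 and 4.45 after protease IV, and it fell by 0.44 (limma, adjusted p = 0.000890). AT5G48800 went from 5.28 to 5.34 in mock to 4.79 to 5.02 after protease IV, and it fell by 0.41 (limma, adjusted p = 0.00249). AT3G49900, the smallest fall that passed, lay between 4.56 and 4.67 in mock and between 4.19 and 4.36 after protease IV, a fall by 0.31 (limma, adjusted p = 0.0108). These 3 are shifts of a modest size in which the groups were nevertheless 0.36, 0.26 and 0.20 log2 units apart.

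With each array left out in turn, AT5G47800 and AT3G49900 still passed, but narrowly (limma, highest adjusted p = 0.0404 and 0.0460). Of the 12 falls, 2 others call for more reserve. AT1G50280 fell by 0.46 (limma, adjusted p = 0.00250), from 3.51, 3.81 and 3.65 to 3.25, 3.23 and 3.11, but both group means lie below the lower quartile of every array, where signal and background are hard to separate. Of all genes with a mock mean that low, 1.06% were called lower. AT5G66560 lay at 5.38, 5.66 and 5.73 in mock and at 5.21, 5.22 and 5.34 after protease IV, so that 0.042 log2 units separated the groups. Its difference was -0.34 (limma, adjusted p = 0.0230) and missed the threshold when any 1 of 4 arrays was left out (mock replicates 2 and 3, protease IV replicates 1 and 2; highest adjusted p = 0.0892) or with cyclic loess scaling (limma, adjusted p = 0.151).

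**Figure D3:**
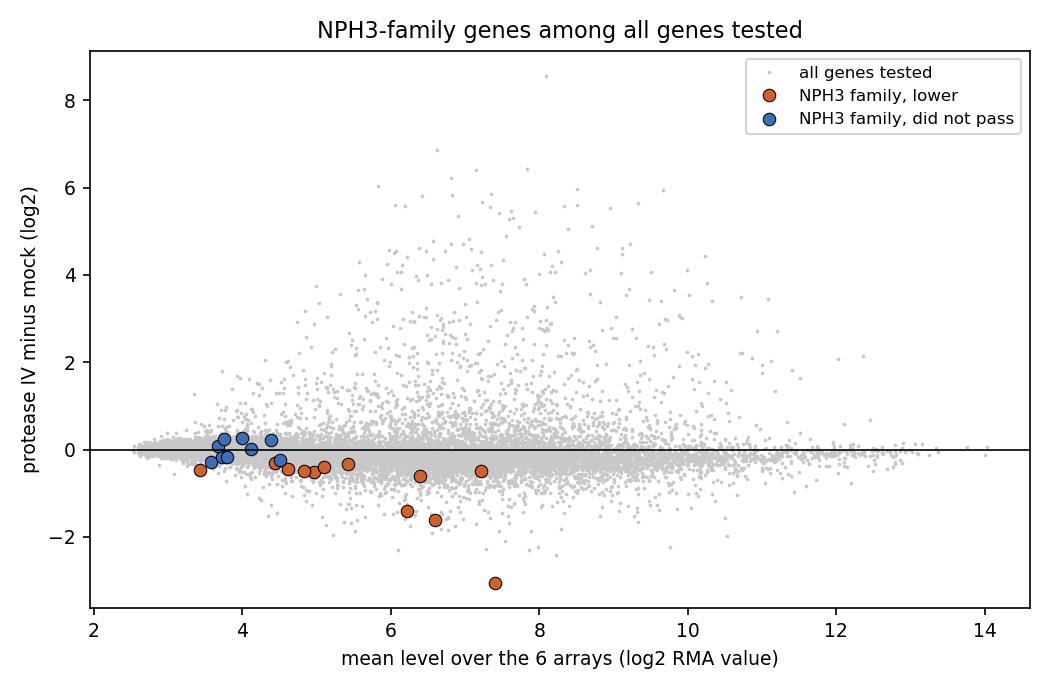
Difference between protease IV and mock (log2, vertical axis) against the mean level over the 6 arrays (log2 RMA value, horizontal axis) for all 13355 genes (grey) and for the NPH3-family genes that were lower (orange) or did not pass (blue). The 9 blue points lie at the left, where no array exceeded 4.82.

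The 9 members that did not pass were dim on these arrays. Their levels ran from 3.37 to 4.82 over all arrays, and in 6 of the 9 the mock mean was below the lower quartile of every array. Their differences ranged from -0.29 to 0.26 (limma, adjusted p from 0.130 to 0.902), 4 below 0 and 5 above, with 0 at an unadjusted p under 0.05. Among the 7 members whose mean over the 6 arrays was at least 5, 7 were lower, against 35.8% of all genes with such a mean. Among the 14 dimmer members it was 5, against 5.27% of all genes with a mean under 5. That last comparison is not matched in level. Lower members AT5G47800, AT3G44820, AT3G26490 and AT3G49900 had means of 4.96, 4.84, 4.62 and 4.44, and the mock means of AT5G47800 and AT3G44820 were above 5. In contrast, 3860 genes had a mock mean below the lower quartile, and 1.06% of them were called lower.

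SETH6, known from a screen for genes needed in pollen germination and tube growth, was one of these dim genes. It lay at 3.60, 3.74 and 3.57 in mock and at 3.83, 3.57 and 3.77 after protease IV, with overlapping groups and a difference of 0.09 (95% interval -0.11 to 0.29; limma, adjusted p = 0.513). All 6 values are under the lower quartiles.

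AT1G52770, at -0.29 (95% interval -0.59 to 0.008), had a mock replicate 2 at 4.004 and a mock replicate 1 at 3.39, inside the treated range of 3.37 to 3.50. AT5G17580 differed by -0.23 (95% interval -0.47 to 0.010), AT3G08660 by -0.18 (-0.37 to 0.015) and AT1G03010 by -0.17 (-0.46 to 0.11). For these 4 the intervals include falls as large as the smallest that passed. Single arrays moved them: AT1G52770 passed as lower without mock replicate 1 (-0.46; limma, adjusted p = 0.00808), AT5G17580 without mock replicate 2 (-0.33; limma, adjusted p = 0.0460) and AT3G08660 without protease IV replicate 2 (-0.26; limma, adjusted p = 0.0288). AT1G03010 differed by -0.0097 without mock replicate 2, which was its highest array.

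The members with differences above 0 were AT5G13600 at 0.26 (95% interval -0.027 to 0.54), AT5G48130 at 0.25 (-0.010 to 0.51), AT3G03510 at 0.22 (-0.044 to 0.48) and AT3G08570 at 0.02 (-0.17 to 0.21), besides SETH6. AT5G13600 passed as higher without mock replicate 3 (difference 0.38; limma, adjusted p = 0.0458) or without protease IV replicate 3 (0.38; limma, adjusted p = 0.0432), and AT5G48130 without protease IV replicate 3 (0.36; limma, adjusted p = 0.0394). Their mock means, 3.87 and 3.63, are close to background.

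The arrays did not contribute equally. Protease IV replicate 1 held the lowest treated value in 8 of the 12 lower members, replicate 2 in 3 and replicate 3 in 1. Among all lower genes in the table the corresponding shares were 47.9%, 22.3% and 29.8%. With each array left out in turn, 11 of the 12 lower members passed in all 6 fits, the exception being AT5G66560.

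The scaling between arrays matters for the count over all genes. With cyclic loess 11.3% of all genes were lower, and the share of calls that were lower went from 66.6% to 42.4%. In the NPH3 family 11 of 21 members were lower with cyclic loess, AT5G66560 being the one that no longer passed, and 0 were higher. The median difference of the members under that scaling was -0.28, against 0.007 over all genes. AT3G19850, AT3G22104 and AT3G15570 differed there by -2.86, -1.45 and -1.24.

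**Figure D4:**
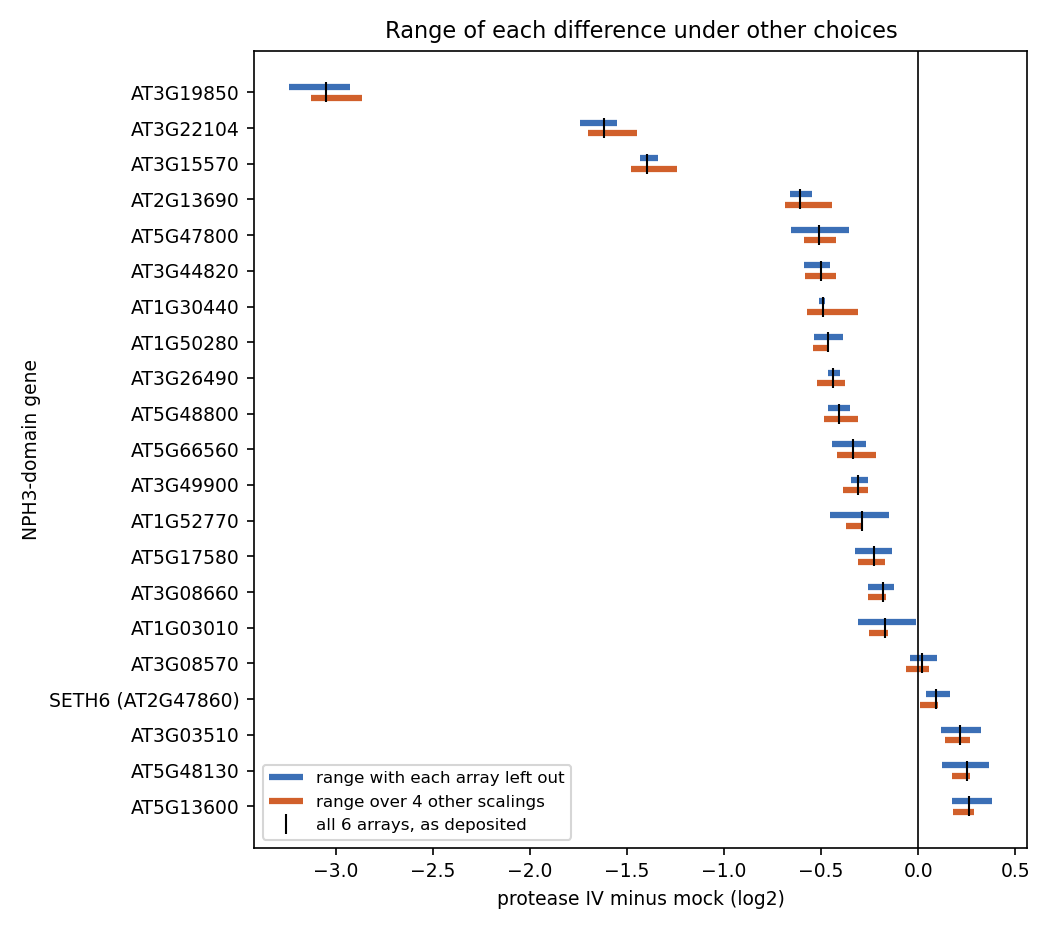
Difference between protease IV and mock (log2, horizontal axis) of each measured NPH3-family gene with all 6 arrays as deposited (black mark), its range with each array left out in turn (blue) and its range over 4 other scalings between arrays (orange). For the 12 members that were lower the ranges stay below 0; for AT3G08570 they cross it.

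The members are scattered in the genome. In the RefSeq gene order the closest measured pair, AT3G08570 and AT3G08660, has 9 protein-coding genes between them, and neither passed. Of the 13 measured genes immediately next to the 12 lower members, 3 were lower, 0 higher and 10 did not pass, where 22.8% of all genes were lower. The 3 were AT1G50290 beside AT1G50280, AT5G48790 beside AT5G48800 and AT3G49890 beside AT3G49900, which fell by 0.91, 0.44 and 0.41 (limma, adjusted p = 7.19e-06, 0.000730 and 0.0119). The fall of AT1G50290 was larger than the 0.46 of the member next to it. The neighbour of AT3G19850 on one side, bHLH121, which encodes a transcription factor of iron homeostasis, differed by -0.20 (limma, adjusted p = 0.175). Next to AT3G15570, AT3G15550 differed by 0.009 and APG8H, of the autophagy protein family ATG8, by -0.12 (limma, adjusted p = 0.960 and 0.327).

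Genes of pathways around the family were counted where they had a single-gene probe set and RefSeq gives the listed name as symbol or synonym. Of 19 genes of phototropin signalling 1 met both conditions, BLUS1 (AT4G14480), a kinase that phototropins phosphorylate in guard cells during stomatal opening. It went from 6.24 ± 0.057 to 5.61 ± 0.12 (SD, n = 3 each), a fall by 0.63 (limma, adjusted p = 0.000184). Another 2 loci on that list, AT1G18810 and AT1G64500, have probe sets but carry no name in RefSeq and were not counted. AT1G18810 went from 7.80, 7.52 and 7.74 to 5.51, 6.17 and 5.87 and fell by 1.84 (limma, adjusted p = 3.92e-06). AT1G64500 fell by 1.33 (limma, adjusted p = 4.60e-06). Of 26 genes of polar auxin transport 2 were counted and 0 passed: the kinases WAG2, at -0.23 (limma, adjusted p = 0.0715), and PID2, at 0.10 (limma, adjusted p = 0.584). Of 25 cullin 3 ligase subunits and other BTB adaptors 1 was counted, BPM3, a BTB adaptor of the MATH type. It fell by 0.27 (limma, adjusted p = 0.0439), but missed the threshold with cyclic loess and when any 1 of 5 arrays was left out, all but protease IV replicate 2. AT4G26120, on the same list but without a name in RefSeq, rose by 2.22 (limma, adjusted p = 3.55e-08). Of 23 auxin response genes 2 were counted. IAA18, an AUX/IAA repressor, fell by 0.29 (limma, adjusted p = 0.0248) but missed the threshold with cyclic loess and when protease IV replicate 1 or either of mock replicates 1 and 3 was left out. IAA29 differed by 0.21 (limma, adjusted p = 0.301) and passed as higher without protease IV replicate 1 (0.37; limma, adjusted p = 0.0469). On a list of 6 CAMTA factors, 3 loci have probe sets but no such name in RefSeq, so 0 were counted. Of these 3, AT1G67310 rose by 0.79 and AT3G16940 by 0.60 (limma, adjusted p = 2.76e-05 and 0.000479), and AT4G16150 differed by 0.08 (limma, adjusted p = 0.487), or by 0.26 with cyclic loess, where it passed (limma, adjusted p = 0.0201). With so few genes counted, these values do not describe the pathways.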

How the data were processed

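RNA from 6 seedling samples was hybridized to 1 Affymetrix array each. The authors deposited RMA output on the log2 scale, made with version 1.36.1 of affy according to the submitters' processing notes. Its settings are not stated there, and probe-level files were not used. The platform annotation held by GEO, possibly outdated, tied 13513 of 22810 probe sets to 1 gene and 503 to several, and did not name 8730, besides 64 controls. RefSeq (TAIR10.1) matched 13508 of the single-gene sets. One probe set per gene left 13355 genes.

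Differences were fitted by lmFit and eBayes of limma 3.58.1 (R 4.3.3) over all 6 arrays without covariates, with Benjamini-Hochberg adjustment over all genes and a threshold of 0.05. On simulated data of 13355 genes, changes of 1 log2 unit were recovered in 96% of cases and of 0.5 in 62%, with 11 false calls. Only 50 genes were changed at each size, far fewer than were called in the real data, which made the adjustment stricter there. These shares therefore do not give the sensitivity in the real data. The number of arrays limits the precision. All measured members are named; from each pathway list up to 3 members past the threshold were to be named, with CUL3A, CUL3B, PHOT1, PHOT2, CAMTA3 and PID where measured, and none of these 6 was. The other measured list members and the neighbours were named after their values were seen. List genes whose listed name is neither a symbol nor a synonym in RefSeq were left out of the counts, and the 6 of them with probe sets are given by locus. Members and lists were chosen with earlier results of these data known. Alternatives were a replicate block, single arrays left out, scalings, a filter on dim genes, probe set choice and the variance model; centring on bacterial controls was added after seeing the data.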

Additional observations from a re-analysis of the deposited data

How the results depend on the processing

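Across 14 alternatives no member that passed changed direction. The count of lower members was 12 in limma, 11 to 13 with each array left out, 11 with cyclic loess and 7 among genes with a mean of at least 5, where fewer members were tested. The count of higher members was 0, and 0 to 2 with each array left out. The members' median, -0.34, ranged from -0.44 to -0.27 with each array left out and was -0.28 with cyclic loess, -0.42 with arrays centred on the bacterial controls and -0.61 among genes with a mean of at least 5. Over all genes 3039 were lower, and 1514 with cyclic loess. Of the 6 counted pathway genes 3 were lower, 1 to 3 with each array left out and 1 with cyclic loess, and 0 were higher, or 0 to 1 with each array left out. These counts omit the list loci without a name in RefSeq. Of those, on all 6 arrays as deposited, AT1G18810 and AT1G64500 were lower, AT4G26120, AT1G67310 and AT3G16940 were higher, and AT4G16150 did not pass. The causes were not tested. Same-numbered arrays did not deviate together (correlations across genes of 0.038, -0.10 and -0.18), so the numbers are not taken as pairs; with the replicate block 12 members and 2738 genes were lower, 1441 were higher, and the call of BPM3 was lost (limma, adjusted p = 0.0519). Signals near background limit what can be seen in the dim members.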
